A study of Mus musculus with 14 samples.

Results

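Endocrine progenitor and dedifferentiation genes are described here in mouse pancreatic islets. They are 9 genes chosen by name, Neurog3, Sox9, Hes1, Serpina7, Aldh1a3, Myc, Gast, Cck and Cd44, out of 19938 genes with a single symbol on the array, and each was read by 1 transcript cluster, the set of probes that reports 1 gene. Islets were taken at 11 weeks of age from untreated mice on a 1:1 mix of C57BL/6 and NMRI. Control mice gave 5 arrays, and the labels give no allele for them. Pdx-1+/- mice gave 4 arrays. Their Pdx-1-tTA allele, which puts a tetracycline transactivator at Pdx-1, leaves them haploinsufficient for Pdx-1. IKK2-CApdx-1 mice (IKK2-CA below) gave 5 arrays. They were diabetic and made constitutively active IKK2, the kinase that switches on NF-κB, in β-cells through the same Pdx-1-tTA allele. The comparison of IKK2-CA with control therefore holds the lost Pdx-1 copy, active IKK2 and diabetes together, and these cannot be told apart.

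In the embryonic pancreas SOX9 keeps progenitors multipotent, Notch signalling through HES1 holds back differentiation, and a pulse of NEUROG3 commits single cells to the endocrine fate. Adult β-cells keep these genes low. β-cells under lasting metabolic stress can lose their mature genes and take up markers such as Aldh1a3, Serpina7, Gast and Cck, a change called dedifferentiation.

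The islet hormones marked the samples as islets. Ins2, the insulin gene, read 12.31 to 12.68 and Gcg, the glucagon gene, 12.88 to 13.36 over the 14 arrays. The values are log2 signals after RMA, an array normalization, so 1 unit is 2-fold within a gene, and different genes are not compared by level. Genes of other tissues set some arrays apart. Cpa1, an acinar digestive enzyme, read 13.61 to 13.71 on every array. That is close to the highest value of any gene on an array (13.64 to 13.73), which leaves little room for a difference to show. A list mean below is the average, over the genes of a list, of how far each lies on the log2 scale from its own 14-array average. For 15 acinar markers it was −0.26 to 0.09 on the control, −0.14 to 0.37 on the Pdx-1+/- and −0.38 to 0.2 on the IKK2-CA arrays. The highest was Pdx-1+/- array 4 and the lowest IKK2-CA array 5. For 16 intestinal markers it was 2.36 on Pdx-1+/- array 4 and 1.03 on control array 3, and −0.47 to −0.20 on the other 12. For 9 adipocyte markers it was 2.63 on IKK2-CA array 5 and at most 0.40 on the control and 0.10 on the Pdx-1+/- arrays. In bulk islets, fewer cells of a type and less RNA per cell cannot be told apart.

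Serpina7 and Cd44 rose in IKK2-CA islets against control islets, and the other 7 genes did not pass the test. Serpina7 encodes the thyroxine-binding globulin, a serpin that carries thyroid hormone in blood, and it was 3.77-fold higher (95% interval 2.26 to 6.29). Cd44, the cell-surface receptor for hyaluronan, was 2.05-fold higher (1.41 to 2.97). They are 2 of 9, where 0.682% of all genes rose and 2.25% passed in either direction. The 9 genes and the lists below were chosen with earlier results of these data known, so their shares are descriptions. A gene passed when its p-value from limma, adjusted by Benjamini and Hochberg over all 19938 genes, was under 0.05. Of the 9 genes 8 had a positive difference with a median of 0.21 log2, beside −0.012 over all genes, of which 46.4% were positive. In IKK2-CA against Pdx-1+/- islets 0 of the 9 passed, beside 0.0752% of all genes, and 2 had an unadjusted p under 0.05, beside 7.02%. In Pdx-1+/- against control islets 0 of the 9 passed, beside 0.0953% of all genes, and again 2 had an unadjusted p under 0.05, beside 4.71%. Genes wholly above or wholly below the other group are a further count. In IKK2-CA against control 2 of the 9 lay wholly above and 0 wholly below (1.86% and 2.34% of all genes), in IKK2-CA against Pdx-1+/- 1 and 0 (1.72% and 0.712%), and in Pdx-1+/- against control 0 and 0 (0.481% and 1.4%).

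**Figure D1:**
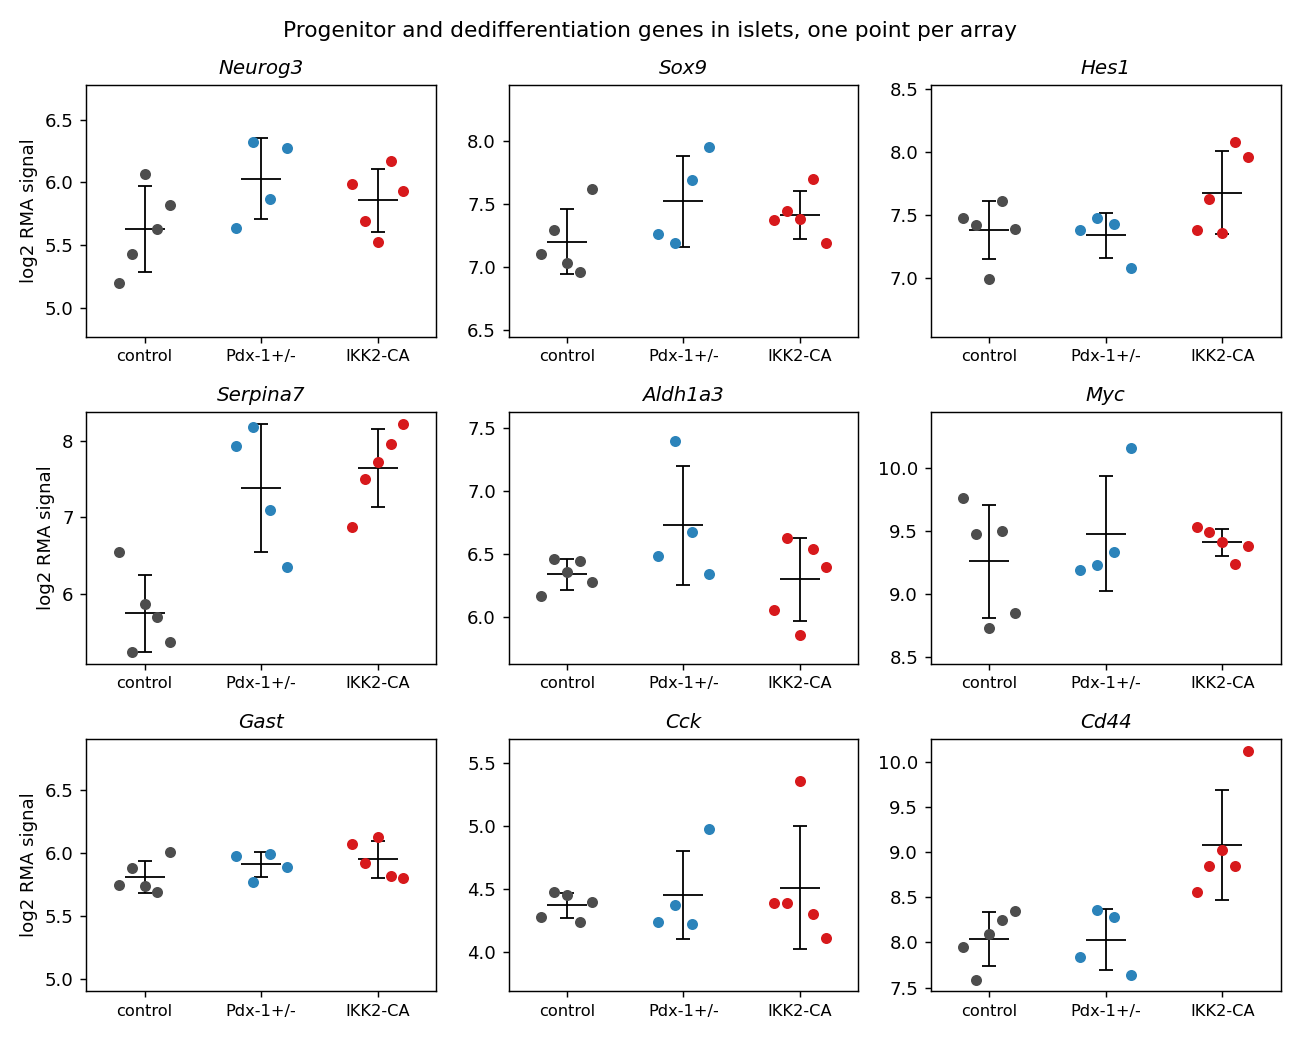
Log2 RMA signal (vertical axis) of the 9 genes by group, 1 point per array, with the group mean and SD as bars; each panel has its own range. Serpina7 lies at 6.87 to 8.22 on the IKK2-CA arrays and 5.24 to 6.54 on the control arrays, and Cd44 at 8.56 to 10.12 on the IKK2-CA arrays and 7.59 to 8.35 on the control arrays.

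Sequence upstream of the genes is shown for Serpina7 and Cd44, which passed the test, and for Neurog3, the factor that defines endocrine progenitors. RefSeq promoters (GRCm38.p6) were matched for 5 of the 9 genes, Neurog3, Serpina7, Gast, Cck and Cd44, and of 2 starts listed for Serpina7 the upstream one was used. Each line gives the 250 bases before the annotated start, 5′ to 3′ on the strand of the gene, with motif matches in capitals.
Serpina7, chrX:139085237-139085486, minus strand: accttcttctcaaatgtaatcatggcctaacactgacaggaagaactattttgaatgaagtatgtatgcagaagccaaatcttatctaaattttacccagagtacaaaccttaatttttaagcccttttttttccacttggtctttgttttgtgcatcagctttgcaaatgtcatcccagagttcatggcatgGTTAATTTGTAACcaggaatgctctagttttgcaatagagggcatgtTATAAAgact
Cd44, chr2:102901666-102901915, minus strand: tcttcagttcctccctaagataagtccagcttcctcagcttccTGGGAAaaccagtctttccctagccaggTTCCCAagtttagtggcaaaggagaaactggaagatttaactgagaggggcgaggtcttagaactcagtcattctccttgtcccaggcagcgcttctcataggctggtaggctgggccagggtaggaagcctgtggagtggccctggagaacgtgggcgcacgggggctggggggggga
Neurog3, chr10:62132840-62133089, plus strand: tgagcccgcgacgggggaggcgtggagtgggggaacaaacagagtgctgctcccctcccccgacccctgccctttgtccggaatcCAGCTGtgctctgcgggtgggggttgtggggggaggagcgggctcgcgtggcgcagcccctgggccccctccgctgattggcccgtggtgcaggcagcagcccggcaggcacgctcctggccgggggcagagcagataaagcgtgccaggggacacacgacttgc

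The capitals mark letters searched on both strands in the same 250 bases of 32851 RefSeq promoters, and a match is a description of these letters, not a site in use. The Serpina7 window holds the TATA box letters TATAAA (12.4% of promoters), 10 to 5 bases before the start. The Gast window holds these letters on the other strand, 28 to 23 bases before the start. The Serpina7 window also holds, 57 to 45 bases before the start, a match to GTTAAT and TAAC with any 3 bases between them. These letters are a form of the hepatocyte nuclear factor 1 motif (0.0822% of promoters). That motif was added after the sequence was read. The Cd44 window holds TGGGAA, the core letters bound by RBPJ, the DNA-binding partner of Notch, once on each strand, and the Cck window holds it once. At least 1 match on either strand was in 21.6% of promoters. The Neurog3 window holds an E-box, CAGCTG (13.0% of promoters), the kind of site that basic helix-loop-helix factors bind. Of the other letters searched, 2 forms of the NF-κB motif, GGG and then any 2 bases before TTTCC (1.41% of promoters) or TTCCC (1.53%), and the GC box GGGCGG (32.7%), the homeodomain core TAATTA (4.84%) and the N-box CACNAG bound by HES factors (36.7%), none was in any of the 5 windows. The Myc E-box CACGTG (6.02%) was in the Cck window. By base composition the windows differed, with 36% G and C for Serpina7, 56.4% for Cd44 and 71.2% for Neurog3.

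Serpina7 (transcript cluster 10606928) was low in control islets and high in both groups that carry the Pdx-1-tTA allele. The control arrays 1 to 5 read 6.54, 5.24, 5.87, 5.69 and 5.37. The Pdx-1+/- arrays 1 to 4 read 7.94, 8.19, 7.09 and 6.35, and the IKK2-CA arrays 1 to 5 read 6.87, 7.50, 7.73, 7.96 and 8.22. All 5 IKK2-CA arrays lay above all 5 control arrays, as was true of 1.86% of all genes, while Pdx-1+/- array 4 lay below control array 1 and the other 3 Pdx-1+/- arrays lay above every control array.

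The group means of Serpina7 were 5.74 ± 0.51 (SD, n = 5) in control, 7.39 ± 0.84 (SD, n = 4) in Pdx-1+/- and 7.65 ± 0.51 (SD, n = 5) in IKK2-CA islets. The difference of IKK2-CA from control was 1.91 log2 (SE 0.35, limma adjusted p = 0.0131). The difference of Pdx-1+/- from control was 1.65 log2 (SE 0.37, 95% interval 0.87 to 2.44), or 3.15-fold, and did not pass (limma adjusted p = 0.172, unadjusted p = 0.000449). Without Pdx-1+/- array 4, the array with intestinal markers, it was 2.00 log2 and passed (limma adjusted p = 0.0482). IKK2-CA and Pdx-1+/- islets, neighbours in the order of means, differed by 0.26 log2 (SE 0.37, limma adjusted p = 0.969), with an interval of −0.52 to 1.04, so neither no difference nor a 2-fold rise is outside it. That difference turned to −0.09 without Pdx-1+/- array 4. Serpina7 also varied more within groups than 98.4% of all genes (within-group SD 0.62).

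Cd44 (transcript cluster 10485405) was high only in the arrays of IKK2-CA islets, among the 14 arrays. The control arrays 1 to 5 read 7.95, 7.59, 8.09, 8.25 and 8.35, the Pdx-1+/- arrays 1 to 4 read 7.84, 8.36, 8.28 and 7.64, and the IKK2-CA arrays 1 to 5 read 8.56, 8.84, 9.02, 8.85 and 10.12. Every IKK2-CA array lay above every array of the other groups. Such a separation was found in 1.86% of all genes against control and in 1.72% against Pdx-1+/-.

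The means of Cd44 were 8.04 ± 0.30 (SD, n = 5) in control, 8.03 ± 0.34 (SD, n = 4) in Pdx-1+/- and 9.08 ± 0.61 (SD, n = 5) in IKK2-CA islets. IKK2-CA differed from control by 1.03 log2 (SE 0.25, limma adjusted p = 0.0463) and from Pdx-1+/- by 1.05 log2 (SE 0.27, 95% interval 0.48 to 1.62, limma adjusted p = 0.246), which did not pass. Pdx-1+/- and control differed by −0.02 log2 (95% interval −0.58 to 0.55). The call against control is near the threshold. It was lost when any of 10 arrays was left out, namely control arrays 1 to 5, Pdx-1+/- arrays 1 to 3 and IKK2-CA arrays 2 and 3 (limma adjusted p = 0.0592 to 0.126). IKK2-CA array 5 had the highest Cd44, and without it the difference was 0.77 log2 and still passed (limma adjusted p = 0.042).

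Leukocytes carry CD44 as well, and their markers moved with it. Of 18 leukocyte markers measured, 16 were higher in IKK2-CA than in control islets by a median of 0.75 log2, and 3 passed, Itgax, Cd52 and Lcp1. The mean of the list, as log2 deviation, was −0.49 to −0.15 on the control, −0.34 to −0.05 on the Pdx-1+/- and −0.19 to 1.38 on the IKK2-CA arrays. None of the defining markers was near the bottom of the scale: Ptprc, the pan-leukocyte antigen CD45, read 6.84 to 7.47 on control arrays and 7.54 to 9.24 on IKK2-CA arrays. The order of the IKK2-CA arrays in the leukocyte mean was 5, 3, 2, 1 and 4, from high to low. IKK2-CA array 4 had Cd44 at 8.85, above the highest control array at 8.35, and a leukocyte mean of −0.19, within the control range. The single markers that passed were nevertheless raised on that array: Itgax read 7.50 (highest control 6.12), Cd52 8.39 (7.65) and Lcp1 9.0 (8.75), and Ptprc read 7.54 (7.47). Markers of dividing cells moved too: all 11 measured were higher than in control (median 0.45 log2) and none of them passed, with list means of −0.35 to −0.07 on the control and −0.05 to 0.84 on the IKK2-CA arrays. The part of these cells in the Cd44 result was not tested.

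**Figure D2:**
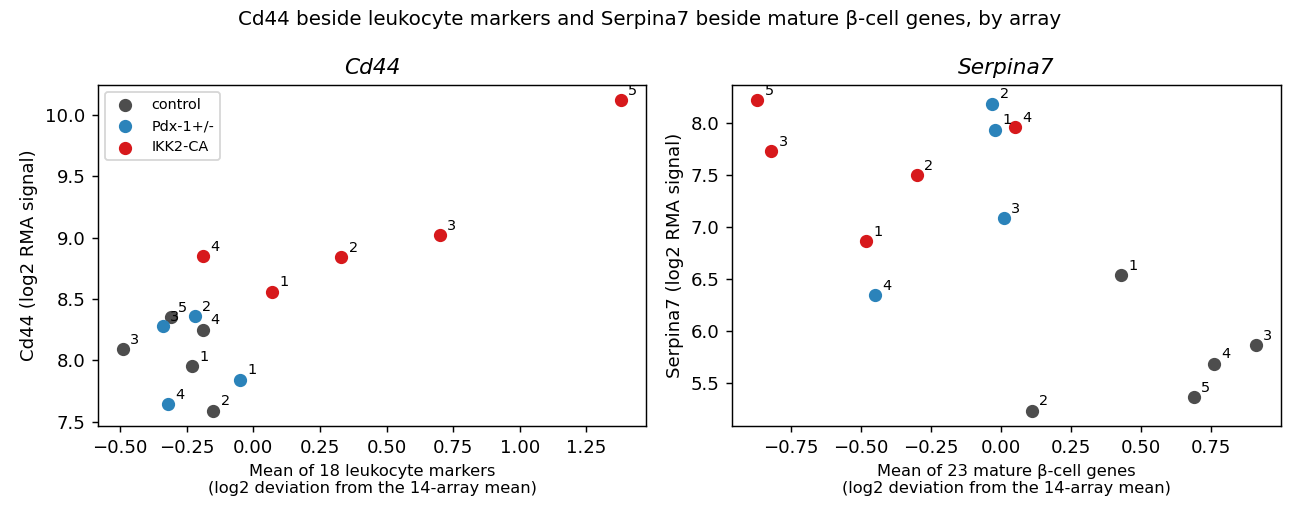
Left: Cd44 (log2 RMA signal) against the mean of 18 leukocyte markers; right: Serpina7 against the mean of 23 mature β-cell genes; both means are log2 deviations from the 14-array mean, and numbers give the array within its group. IKK2-CA array 5 is highest for Cd44 (10.12) and for the leukocyte mean (1.38), and IKK2-CA array 4 has Cd44 at 8.85 with a leukocyte mean of −0.19, although Itgax, Cd52, Lcp1 and Ptprc on that array are above every control array.

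The progenitor transcription factors did not pass in any of the 3 comparisons. Neurog3 (transcript cluster 10363545), the proneural factor of endocrine precursors, read 5.20, 5.43, 6.07, 5.63 and 5.82 on control arrays 1 to 5, 5.64, 6.32, 5.87 and 6.27 on Pdx-1+/- arrays 1 to 4, and 5.99, 5.69, 5.53, 6.17 and 5.93 on IKK2-CA arrays 1 to 5. The groups overlapped, with Pdx-1+/- arrays 2 and 4 above every control array. The means were 5.63 ± 0.34 (SD, n = 5), 6.03 ± 0.32 (SD, n = 4) and 5.86 ± 0.25 (SD, n = 5). Pdx-1+/- differed from control by 0.40 log2 (SE 0.19, limma adjusted p = 0.999, unadjusted p = 0.0496), IKK2-CA from control by 0.23 (95% interval −0.14 to 0.61), and IKK2-CA from Pdx-1+/- by −0.17 (−0.56 to 0.23). A rise of the Neurog3 signal above 1.52-fold in IKK2-CA over control is outside the interval. Pdx-1+/- array 4 had the highest intestinal mean (2.36), and control array 3, the highest control array for Neurog3, the next highest (1.03). On Pdx-1+/- array 2, the highest of all for Neurog3, the intestinal mean was −0.2. The part of intestinal cells in the Neurog3 values was not tested.

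Sox9 (transcript cluster 10382328), which maintains pancreatic progenitors and stays on in duct cells, followed the same order of means as Neurog3, highest in Pdx-1+/- and lowest in control islets. It read 7.10, 7.29, 7.03, 6.96 and 7.62 on control arrays, 7.26, 7.19, 7.69 and 7.95 on Pdx-1+/- arrays, and 7.37, 7.44, 7.38, 7.70 and 7.19 on IKK2-CA arrays. The differences were 0.32 log2 for Pdx-1+/- against control (SE 0.17, 95% interval −0.04 to 0.68), 0.21 for IKK2-CA against control (−0.12 to 0.55) and −0.11 for IKK2-CA against Pdx-1+/- (−0.46 to 0.25). No neighbours in that order differed beyond their spread. Sox9 was highest on Pdx-1+/- array 4, the array with the highest intestinal mean (2.36). Without that array, the difference of IKK2-CA from Pdx-1+/- turned to 0.04 log2. The list mean of 12 duct markers was −0.22 to 0.05 on control, 0.05 to 0.29 on Pdx-1+/- and −0.21 to 0.19 on IKK2-CA arrays. Against control, 9 of the 12 were higher in Pdx-1+/- (median 0.32 log2) and 6 in IKK2-CA islets (median 0.02). Tspan8, Ambp, Onecut2, Car2 and Cldn3 shared the order of means of Sox9, and the other duct markers, the keratins among them, did not. Tspan8 averaged 6.33 on control, 7.03 on Pdx-1+/- and 6.87 on IKK2-CA arrays, and Ambp 7.17, 8.03 and 7.72. Krt19 read 8.46 to 9.37 on control, 8.28 to 9.33 on Pdx-1+/- and 8.66 to 9.17 on IKK2-CA arrays, and Krt7 averaged 9.53, 9.0 and 8.81, at −0.72 log2 in IKK2-CA against control (SE 0.26, limma adjusted p = 0.184). The part of duct or intestinal cells in the Sox9 values was not tested.

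Hes1 (transcript cluster 10434925), the Notch-induced repressor of Neurog3, was highest on IKK2-CA arrays 4 and 5. Control arrays read 7.48, 7.42, 6.99, 7.61 and 7.39, Pdx-1+/- arrays 7.38, 7.48, 7.43 and 7.08, and IKK2-CA arrays 7.38, 7.63, 7.36, 8.08 and 7.96. Arrays 2, 4 and 5 of IKK2-CA lay above all arrays of the other groups, and arrays 1 and 3 lay among them. The difference from control was 0.31 log2 (SE 0.15, 95% interval −0.02 to 0.63, limma adjusted p = 0.357) and from Pdx-1+/- 0.34 (SE 0.16, 95% interval −0.0045 to 0.68, limma adjusted p = 0.721). Pdx-1+/- and control differed by −0.03 (−0.38 to 0.31). The list mean of 12 endothelial markers was 0.39 and 0.4 on IKK2-CA arrays 4 and 5. It was 0.05 on IKK2-CA array 2 and −0.03 and −0.42 on arrays 1 and 3. The control arrays had −0.25 to 0.34 and the Pdx-1+/- arrays −0.55 to 0.17. The part of endothelial cells in the Hes1 values was not tested.

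Aldh1a3 and Myc, further genes named in β-cell dedifferentiation, did not pass either. Aldh1a3 (transcript cluster 10564417) makes retinoic acid from retinal and marks failing β-cells. It read 6.17, 6.46, 6.36, 6.45 and 6.28 on control, 6.49, 7.40, 6.68 and 6.34 on Pdx-1+/- and 6.06, 6.63, 5.86, 6.54 and 6.40 on IKK2-CA arrays. Pdx-1+/- array 2 was the highest of the 14, and IKK2-CA arrays 1 and 3 were the lowest. IKK2-CA differed from control by −0.05 log2 (SE 0.19, 95% interval −0.44 to 0.35) and from Pdx-1+/- by −0.43 (SE 0.20, limma adjusted p = 0.701, unadjusted p = 0.0468). Pdx-1+/- differed from control by 0.38 (−0.04 to 0.80). A 2-fold rise of the Aldh1a3 signal in IKK2-CA over control islets lies outside the interval.

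Myc (transcript cluster 10424400), the growth-promoting transcription factor, read 9.76, 9.48, 8.73, 9.50 and 8.85 on control, 9.19, 9.23, 9.33 and 10.16 on Pdx-1+/- and 9.53, 9.49, 9.41, 9.24 and 9.38 on IKK2-CA arrays. The IKK2-CA arrays lay close together (SD 0.11) inside the range of the control arrays (SD 0.45). Pdx-1+/- array 4, the array with the highest intestinal mean (2.36), was the highest of all, and control array 3, the next highest for intestinal markers (1.03), was the lowest. The differences were 0.15 log2 for IKK2-CA against control (95% interval −0.30 to 0.59), −0.07 for IKK2-CA against Pdx-1+/- (−0.54 to 0.41) and 0.21 for Pdx-1+/- against control (−0.26 to 0.69). Without Pdx-1+/- array 4 the last of these was −0.01, and the one before it 0.16.

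The gut peptide genes lay level across the groups. Gast, the gene of gastrin, which fetal but not adult islets make, read 5.69 to 6.01 on control (median 5.75), 5.77 to 5.99 on Pdx-1+/- (median 5.94) and 5.80 to 6.13 on IKK2-CA arrays (median 5.92). Its within-group SD of 0.13 was the smallest of the 9 genes, and the differences were 0.13 log2 (95% interval −0.05 to 0.32) for IKK2-CA against control, 0.10 (−0.10 to 0.29) for Pdx-1+/- against control and 0.04 (−0.16 to 0.24) for IKK2-CA against Pdx-1+/-. The upper limits leave no room for a 2-fold rise of this signal in any of the 3. Whether the Gast probes read above background was not tested, so the limits hold for the array signal and not for the transcript.

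Cck, the gene of cholecystokinin, a peptide related to gastrin, read 4.28, 4.48, 4.45, 4.24 and 4.40 on control, 4.24, 4.37, 4.22 and 4.98 on Pdx-1+/- and 4.39, 4.39, 5.36, 4.30 and 4.11 on IKK2-CA arrays. A single array stood out in each mutant group, Pdx-1+/- array 4 and IKK2-CA array 3, and the other 12 arrays lay between 4.11 and 4.48. Pdx-1+/- array 4 is the array with the highest intestinal mean (2.36). The differences were 0.14 log2 for IKK2-CA against control (95% interval −0.29 to 0.57) and 0.08 for Pdx-1+/- against control (−0.37 to 0.54). They turned to −0.07 without IKK2-CA array 3 and to −0.09 without Pdx-1+/- array 4. The mean of 10 enteroendocrine markers was −0.13 on IKK2-CA array 3, inside the control range of −0.14 to 0.08. On Pdx-1+/- array 4 it lay inside that range as well. The part of intestinal cells in the Cck values was not tested, nor whether the Cck probes read above background.

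**Figure D3:**
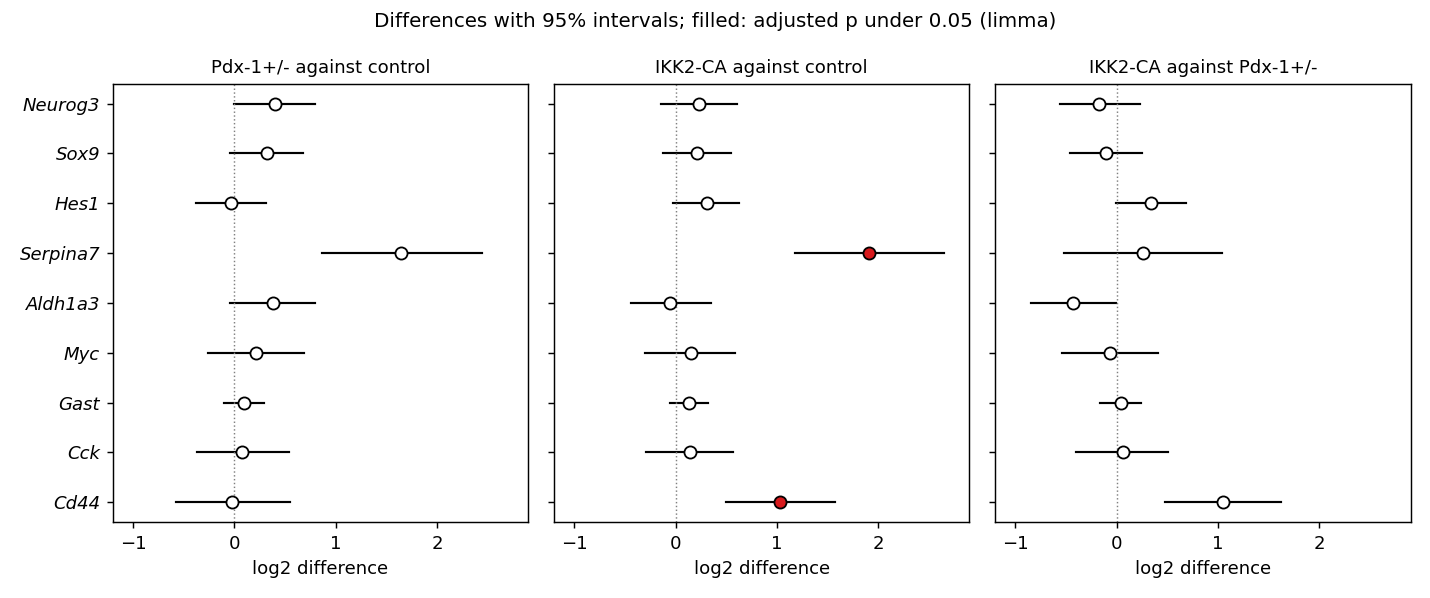
Log2 difference (horizontal axis) with its 95% interval for the 9 genes in the 3 comparisons; filled points have a limma adjusted p under 0.05. Filled points are Serpina7 (1.91) and Cd44 (1.03) in IKK2-CA against control.

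The NEUROG3 targets and other endocrine commitment genes pointed down where Neurog3 itself did not pass. Of 30 genes listed, 25 were measured and 0 passed in any comparison. Of these 21 were lower in IKK2-CA than in control islets (median −0.27 log2), 20 lower in Pdx-1+/- than in control (median −0.22) and 21 lower in IKK2-CA than in Pdx-1+/- (median −0.09), beside medians over all genes of −0.012, −0.0049 and −0.015. The comparisons share samples, so these counts are not independent of each other. The list shares Nkx6-1 and Neurod1 with the mature β-cell genes below, of which all 23 were lower in both mutant groups than in control islets. It also holds Bhlha15, an acinar marker. The part of a general loss of β-cell genes in these counts was not tested. Myt1, a zinc finger factor of endocrine precursors, was at −0.69 log2 in IKK2-CA against control (SE 0.17, limma adjusted p = 0.0507), and Nkx6-1, a β-cell homeodomain factor, at −0.88 (SE 0.24, limma adjusted p = 0.0704).

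Among 20 other factors of multipotent pancreatic progenitors 0 passed. Of these 15 were higher in Pdx-1+/- than in control islets (median 0.13 log2) and 11 were higher in IKK2-CA than in control (median 0.03). The list holds Ptf1a and Cpa1, which are acinar markers too. All 15 acinar markers were also higher in Pdx-1+/- than in control islets (median 0.05 log2), and 0 passed. Both list means were highest on Pdx-1+/- array 4 (progenitor 0.36, acinar 0.37) and lowest on IKK2-CA array 5 (−0.34 and −0.38). The part of acinar cells in these values was not tested. Prom1, a surface glycoprotein of progenitors that duct cells also carry, was at 0.51 log2 in Pdx-1+/- against control (SE 0.14, limma adjusted p = 0.424), and Foxa2, a forkhead factor of endoderm and islets, at −0.52 in IKK2-CA against control (SE 0.14, limma adjusted p = 0.064).

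The Notch pathway induces Hes1. Of 36 genes listed as its ligands, receptors and effectors, 27 were higher in IKK2-CA than in control islets (median 0.11 log2), 1 rose and 1 fell. Id2, an inhibitor of basic helix-loop-helix factors that answers to several signals, rose by 0.89 log2 (SE 0.16, limma adjusted p = 0.014). It read 9.37 to 9.81 on control, 9.43 to 9.85 on Pdx-1+/- and 10.11 to 11.13 on IKK2-CA arrays, without overlap. The highest was IKK2-CA array 5, which also had the highest leukocyte mean (1.38). Maml3, a coactivator of the Notch complex, fell by 0.50 log2 (SE 0.12, limma adjusted p = 0.0415), from 7.95 ± 0.24 (SD, n = 5) to 7.44 ± 0.19 (SD, n = 5). None of the 36 passed in the other comparisons. The list mean of the 36 genes was highest on IKK2-CA arrays 4 and 5 (0.22 and 0.17), the arrays with the highest endothelial means. The part of endothelial cells in these values was not tested.

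Genes around the other members gave few calls, all in IKK2-CA against control. Of 21 retinoic acid genes 13 were higher (median 0.05 log2) and Rbp4, the plasma retinol carrier, fell by 0.76 log2 (SE 0.18, limma adjusted p = 0.0384). Of 32 Myc partners and targets 19 were higher (median 0.04 log2), and Ccnd2, the D-type cyclin of β-cell division, fell by 0.68 log2 (SE 0.15, limma adjusted p = 0.026). Its control arrays read 10.99 to 11.67, and 4 IKK2-CA arrays read 10.30 to 10.71 with array 4 at 11.14.

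Of 18 Cd44 ligands and partners 7 were higher in IKK2-CA than in control islets (median −0.06 log2), and Cd74, which binds CD44 on the cell surface and is the MHC class II invariant chain of antigen-presenting cells, rose by 1.02 log2 (SE 0.19, limma adjusted p = 0.0162). Cd74 read 11.53 to 12.50 on IKK2-CA arrays and 10.40 to 11.20 on control arrays. Of 19 genes for peptide processing, gastrin and cholecystokinin receptors and related gut peptides, 15 were lower (median −0.12 log2) and 0 passed. Pcsk1, a prohormone convertase, was at −0.76 log2 (SE 0.23, limma adjusted p = 0.113) and Ghrl, the ghrelin gene, at 0.34 (SE 0.13, limma adjusted p = 0.214). Of 11 other serpins and thyroid hormone carriers 9 were higher (median 0.44 log2), and Serpina1c rose by 2.01 log2 (SE 0.47, limma adjusted p = 0.0415). Serpina1c encodes an α1-antitrypsin with near-identical copies, so its probes may read several genes. IKK2-CA arrays 3 and 5 read 6.81 and 7.55 and the other 3 read 4.64 to 4.75, against 3.44 to 3.79 on control arrays. Unlike Serpina7, Serpina1c read 3.52 to 3.88 on the Pdx-1+/- arrays, a difference of 0.02 log2 from control (SE 0.50). Over the 14 fits that each leave out 1 array, the call was lost in 10 for Rbp4, 7 for Ccnd2, 11 for Maml3 and 9 for Serpina1c. The differences kept their direction, at −0.91 to −0.68 log2 for Rbp4, −0.81 to −0.59 for Ccnd2, −0.60 to −0.44 for Maml3 and 1.54 to 2.27 for Serpina1c. Control arrays 1, 3, 4 and 5 and IKK2-CA array 3 each ended all 4 calls.

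Other genes linked to dedifferentiation or β-cell stress showed no common direction. Of 33 measured, 17 were higher and 16 lower in IKK2-CA than in control islets (median 0.0013 log2), and 0 passed in any comparison. Dcx, a microtubule protein of immature neurons, was at −0.57 log2 (SE 0.15, limma adjusted p = 0.0632), and Asb11 at −0.83 (SE 0.30, limma adjusted p = 0.169).

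The mature β-cell genes, by contrast, were lower in both mutant groups than in control islets. All 23 measured were lower in IKK2-CA than in control islets (median −1.04 log2) and 13 fell, where 1.56% of all genes fell. All 23 were also lower in Pdx-1+/- than in control islets (median −0.61 log2), and 2 fell. In IKK2-CA against Pdx-1+/- islets 22 were lower and 1 higher (median −0.32 log2), and 0 fell. Among 8 islet endocrine markers 7 were lower in IKK2-CA than in control islets (median −0.18 log2) and 2 fell, Slc30a8, the granule zinc transporter, which the mature β-cell list also holds, by 1.44 log2 (SE 0.30, limma adjusted p = 0.0243) and Sst, the somatostatin gene of δ-cells, by 0.67 log2 (SE 0.15, limma adjusted p = 0.0358). Sytl4 (granuphilin), a docking factor of the insulin granule, fell by 2.04 log2 in IKK2-CA (SE 0.20, limma adjusted p = 0.000195) and by 1.66 log2 in Pdx-1+/- islets (SE 0.21, limma adjusted p = 0.00363). In IKK2-CA against control islets Slc2a2, the glucose transporter of β-cells, fell by 1.92 log2 (SE 0.30, limma adjusted p = 0.00694), Pdx1 by 1.56 (SE 0.24, limma adjusted p = 0.0048) and Trpm5, a cation channel, by 0.76 (SE 0.11, limma adjusted p = 0.00427). Both mutant groups lack a Pdx-1 copy by genotype, so a lower Pdx1, though not its size, was built into the design. Pdx1 read 7.67 to 8.62 on control, 6.85 to 7.32 on Pdx-1+/- and 5.97 to 7.44 on IKK2-CA arrays. The mean of the 23 genes, as log2 deviation, was 0.11 to 0.91 on control, −0.45 to 0.01 on Pdx-1+/- and −0.87 to 0.05 on IKK2-CA arrays. Within the mutant groups a low mature β-cell mean went with a high Serpina7 on some arrays and not on others. IKK2-CA array 5 had the lowest mature β-cell mean of all arrays (−0.87) and the highest Serpina7 (8.22). IKK2-CA array 4 had the highest mature β-cell mean of its group (0.05) with Serpina7 at 7.96. Pdx-1+/- array 4, the array with the highest intestinal mean (2.36), had the lowest mature β-cell mean of its group (−0.45). Serpina7 on that array, at 6.35, was the lowest of its group as well. A link between Serpina7 and the mature β-cell mean was not tested.

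**Figure D4:**
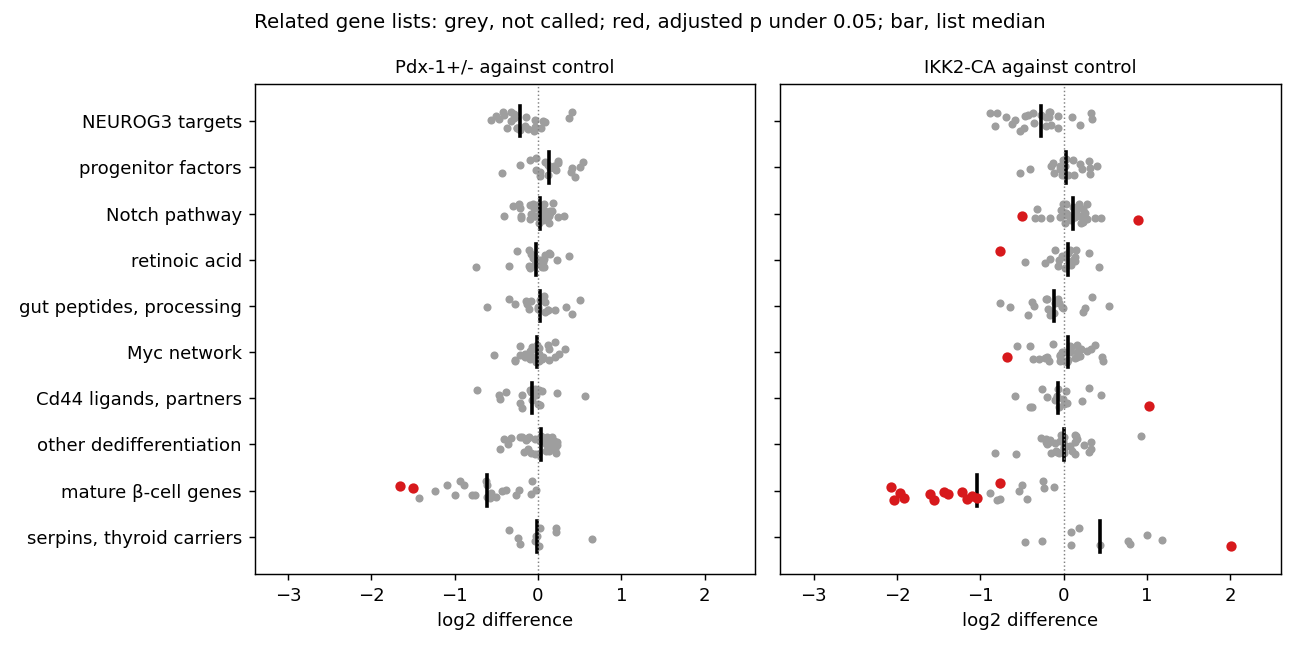
Log2 difference (horizontal axis) of each measured gene in 10 related lists, in Pdx-1+/- against control and IKK2-CA against control; red points have a limma adjusted p under 0.05 and the black bar is the list median. The mature β-cell genes lie lowest (medians −0.61 and −1.04) and the other 9 medians lie between −0.27 and 0.44.

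The genes with the pattern most like Serpina7 over the 14 arrays were Tspan8 (Pearson r = 0.852), Fam167a (0.821) and Gimap5 (0.817). Tspan8, a tetraspanin also listed among the duct markers, averaged 6.33 on control, 7.03 on Pdx-1+/- and 6.87 on IKK2-CA arrays. It rose by 0.54 log2 in IKK2-CA against control (SE 0.13, limma adjusted p = 0.0442). Its difference of Pdx-1+/- from control was 0.69 log2 (SE 0.14, limma adjusted p = 0.0957) and did not pass. In IKK2-CA against control Fam167a rose by 0.73 log2 (limma adjusted p = 0.00369), and Gimap5, at 0.41, did not pass (limma adjusted p = 0.0892). The genes most like Cd44 were Rgs1 (r = 0.972), a regulator of G protein signalling in leukocytes, Il13ra1 (0.968), a receptor chain for interleukin-13, and Cdca8 (0.961), a protein of the dividing spindle. Rgs1 rose by 1.11 log2 in IKK2-CA against control (SE 0.21, limma adjusted p = 0.0161). These correlations describe 14 arrays in 3 groups, so a shared group difference or 1 array can carry them.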

How the data were processed

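RNA of 14 islet samples was hybridised to the Mouse Gene 1.0 ST array of Affymetrix. The labels' protocols name an RNeasy kit for extraction, WT Sense Target labelling and RMA in Expression Console (version: not given in the sources used here). RMA leaves 1 value per transcript cluster, which the authors deposited and which is taken here as log2 from its range, since no log base is stated. Where nothing says that arrays are separate mice, p-values measure the spread between samples, which may be technical.

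Of 35556 transcript clusters, the 21789 with 1 gene symbol were kept (1621 have several and 12146 are not listed in the gene table used). Symbols were updated through Entrez IDs, and the brightest cluster was kept for the 999 genes with several, which left 19938 genes. No filter was applied. Genes were tested with limma 3.58.1 (lmFit, eBayes; R 4.3.3) from a single model with a mean for each of the 3 groups, with 11 residual and 3.46 prior degrees of freedom, tested on simulated data. The threshold was a Benjamini-Hochberg adjusted p of 0.05, and intervals are 95%. The number of arrays limits precision. Named from each list were up to 4 genes past the threshold, or the 2 with the smallest p. The members and lists were chosen with earlier results of these data known. Alternatives were array centring, quantile normalization, trend and robust eBayes, fits of 2 groups, leaving out the lowest 30% of genes, every cluster, cluster means, array weights, a replicate block, and leaving out arrays.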

Additional observations from a re-analysis of the deposited data

Results flagged for a closer look

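In 81 combinations of a gene and a group (27 genes in 3 groups), 4 single arrays lay far from their group by Dixon's test at the 5% level, and chance gives about 1 in 20. Cck read 5.36 on IKK2-CA array 3 and 4.11 to 4.39 on the other 4 arrays. Myc read 10.16 on Pdx-1+/- array 4 and 9.19 to 9.33 on the other 3. Pcsk1, a prohormone convertase, read 9.26 on that same array and 10.02 to 10.16 on the other 3 of its group. Id2 read 11.13 on IKK2-CA array 5 and 10.11 to 10.30 on the other 4.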

How the results depend on the processing

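Of 27 differences of the 9 genes, 16 kept their sign in all 25 alternatives, among them Serpina7 and Cd44 in IKK2-CA against control, and 11 changed sign in at least 1, none of them past the threshold in the fit reported; the cause was not tested.

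In IKK2-CA against control 1 gene in place of 2 passed with only the 2 groups fitted, with every cluster tested (more features adjusted over) and with 3 arrays removed, namely control 3, IKK2-CA 5 and Pdx-1+/- 4 (Serpina7 each time). The replicate number used as a block left 1 as well, Cd44, with Serpina7 at an adjusted p of 0.0526 (limma). Nothing in the labels makes the number a pairing, and 2 of 13 same-number correlations of deviations were over 0.1 and 2 of 14 arrays matched their own number best; the block moved the calls over all genes from 448 to 197. Over single arrays left out, 1 to 2 passed. In Pdx-1+/- against control, Serpina7 made it 1 in place of 0 with array weights and when IKK2-CA 5 and Pdx-1+/- 4 were both removed, and 0 to 1 passed over single arrays left out.

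Sign changes (log2) in IKK2-CA against Pdx-1+/- were, with array weights, without the 2 arrays and without these and control array 3, Serpina7 −0.14, −0.23 and −0.23, Sox9 0.02, 0.09 and 0.09, and Myc 0.13, 0.17 and 0.17. Over single arrays left out the ranges were Serpina7 −0.09 to 0.53, Sox9 −0.22 to 0.04, Gast −0.0077 to 0.08, Cck −0.16 to 0.23 and Myc −0.16 to 0.16.

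In IKK2-CA against control, Aldh1a3 turned to 0.07 with array weights and ranged from −0.13 to 0.06 over single arrays, and Cck from −0.07 to 0.24. In Pdx-1+/- against control, array weights gave Cck −0.04, Hes1 0.04 and Cd44 0.0031. Without the 2 arrays Cck was −0.09, Myc −0.01, Hes1 0.05 and Cd44 0.11, and without these and control array 3 Cck was −0.07, Myc −0.15 and Cd44 0.12. Quantile normalization gave Hes1 0.01 and Cd44 0.03, median centring Cd44 0.0066, and the replicate block Hes1 0.003 and Cd44 0.15. Over single arrays Cck ranged from −0.09 to 0.16, Myc from −0.01 to 0.34, Hes1 from −0.13 to 0.05 and Cd44 from −0.13 to 0.11.

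The calls over all genes in IKK2-CA against control ranged from 120 (without control array 3) to 1431 (array weights). Id2, Sytl4, Trpm5, Pdx1 and Slc2a2 kept their call against control in 25 of 25 alternatives in IKK2-CA islets; Maml3 lost it in 16, Rbp4 in 14, Ccnd2 in 10, Serpina1c in 14 of 24 and Cd74 in 2.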
